A study of Mus musculus with 24 samples.

Results

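The 9 genes described here encode 5 chains of the fibrillar collagens (Col1a1, Col1a2, Col3a1, Col5a1 and Col5a2), the collagen-binding glycoprotein Sparc, and the lysyl oxidases Lox, Loxl1 and Loxl2. They are 9 of the 12091 mouse genes with deposited values, and all 9 listed symbols are in the table. They were chosen by symbol, with earlier results in view, for opposite changes between shPTN and shCtrl cells of 2 mammary cancer lines. Because those contrasts chose them, their values in the cells, and the counts of them called by the fit over all genes, are a description, and p-values are given only for their tumor contrasts. The data go against the word opposite for most of them. Col1a1 was the only member whose shPTN and shCtrl samples were fully separated in both lines and in opposite directions.

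RNA sequencing was run on 24 samples, in 4 experiments of 3 control samples and 3 samples in which pleiotrophin (PTN), a secreted heparin-binding cytokine, was blocked or depleted. The comparisons ask which genes differ when PTN is blocked in mammary tumors or depleted in mammary cancer cells. The tumors came from mice given C44, a control mouse IgG, or 3B10, a monoclonal antibody against PTN, at 15 mg/kg, 2 times a week. 4T1 tumors grew from a mouse mammary carcinoma line implanted orthotopically in the mammary fat pad of BALB/c mice. Dosing of these mice began when a tumor could be felt. *MMTV-PyMT* tumors arose in FVB/N transgenic mice in which the MMTV promoter drives the polyoma middle T antigen, and treatment started after tumors had formed. E0771-LG comes from a lung metastasis of E0771, a mammary adenocarcinoma line of C57BL/6 origin that metastasizes poorly. Both lines carried pLKO.1-puro with either a control hairpin against EGFP (shCtrl) or a single hairpin construct against PTN (shPTN), and were grown in medium with serum as puromycin-selected populations. The shPTN and shCtrl populations were selected separately, so differences that arose in selection and differences that follow PTN depletion cannot be told apart. The study's methods name 3 biological replicates, and the labels do not say whether the cell samples of a group were separate cultures, so p-values measure only the spread between these samples. Values are log2 CPM (counts scaled to the library's total) in *MMTV-PyMT* tumors and in the cells, from 15.63 to 21.12 M reads on genes per sample. The log2 values of 4T1 tumors appear to be scaled for gene length, at least in part, since they fell with length against those of E0771-LG. The study's methods name StringTie for assembly, but no source says which step made these 4T1 values. How many reads lie behind them is unknown.

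Fibrillar collagens are made as procollagen chains that are hydroxylated and folded into a triple helix in the endoplasmic reticulum, trimmed outside the cell, and packed into fibrils. Lysyl oxidases then oxidise lysines of collagen and elastin, which leads to the covalent crosslinks that stiffen the fibrils. In mammary tumors most fibrillar collagen is made by fibroblasts, and dense, crosslinked collagen is a known feature of breast cancer stroma.

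Ptn, the target of the hairpin, was lower in every shPTN sample than in every shCtrl sample of the same line. In E0771 cells the level was 2.90, 2.18 and 2.28 log2 CPM in the shCtrl samples and −0.63, 0.25 and 0.53 in the shPTN samples. It fell to 18.9% of control (log2 fold change −2.40, SE 0.37, adjusted p = 0.00159). In E0771-LG cells the level was 3.65, 4.51 and 3.74 with shCtrl and 1.42, 0.98 and 1.38 with shPTN. It fell to 15.3% of control there (log2 fold change −2.71, SE 0.28, adjusted p = 6.3e-05). In the tumors, where the antibody acts on the secreted protein, Ptn was at 2.80, 2.73 and 3.42 log2 CPM with C44 and 3.28, 2.95 and 4.22 with 3B10 in *MMTV-PyMT*, with overlapping groups. In 4T1 tumors it was too low to be tested, between −0.76 and 0.86 on their log2 scale.

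The members lie on several chromosomes of GRCm38. Col3a1, at chr1:45311538-45349706 on the plus strand, and Col5a2, at chr1:45374321-45503282 on the minus strand, are neighbours. Col1a1 (chr11:94936224-94953042) and Sparc (chr11:55394500-55423183, minus strand) share a chromosome. Col1a2 is at chr6:4504814-4541544, Col5a1 at chr2:27886425-28039514, Loxl1 at chr9:58287738-58313186 and Loxl2 at chr14:69609068-69695834. RefSeq promoter sequences (GRCm38.p6) were used for 4 members: Col1a2, Col3a1, Col5a1 and Sparc. For Col3a1 and Col5a1 the 250 bases before the start lie outside the exons of the gene. They are printed because they differ in base composition while the levels of these genes in the tumors vary together from sample to sample. Both strands were searched for GGGCGG, the core of the GC box. They were also searched for CCAAT, the motif that the factor NF-Y binds. The last motif searched was TATAAA, the TATA box, and capitals mark a match to any of these on either strand. The first is at chr1:45311288-45311537 and the other at chr2:27886175-27886424, both on the plus strand.
Col3a1: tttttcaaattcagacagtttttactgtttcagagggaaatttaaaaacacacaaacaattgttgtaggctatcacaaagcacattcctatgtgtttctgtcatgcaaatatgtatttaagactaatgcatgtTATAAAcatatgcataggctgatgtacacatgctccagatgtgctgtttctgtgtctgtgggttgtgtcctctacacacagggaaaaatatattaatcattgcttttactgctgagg
Col5a1: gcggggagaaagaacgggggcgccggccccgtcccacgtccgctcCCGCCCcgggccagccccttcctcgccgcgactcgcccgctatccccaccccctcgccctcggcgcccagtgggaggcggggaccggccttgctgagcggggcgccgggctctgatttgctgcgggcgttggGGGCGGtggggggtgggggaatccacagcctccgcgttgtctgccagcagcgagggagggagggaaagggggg

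The Col3a1 window is 35.2% G and C and holds 1 match to the last, whose first base is 117 bases before the start. The Col5a1 window is 76.4% G and C and holds 2 matches to the first and none to the other two. Among the first 250 bases of all 32851 RefSeq promoters in the table, 32.7% hold the first motif, 33.8% the second and 12.4% the third. A match is a description of the letters in the window, and whether a factor binds there was not tested.

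Type I collagen, the most abundant fibrillar collagen of most tissues, is a trimer of 2 chains from Col1a1 and 1 chain from Col1a2. Col1a1 was the member with opposite differences in the lines. In E0771 cells it was at 4.46, 4.50 and 4.33 log2 CPM with shCtrl and 5.27, 5.51 and 5.57 with shPTN. All 3 shPTN samples were above all 3 shCtrl samples, by 2.03-fold (log2 difference 1.02, SE 0.12), at 741 to 821 reads against 333 to 463. In E0771-LG cells it was at 3.45, 3.24 and 3.51 with shCtrl and −0.76, −2.37 and −0.73 with shPTN. Every E0771-LG shPTN sample was below every shCtrl sample, at 12, 3 and 10 reads against 188, 184 and 211, or 3.9% of control (log2 difference −4.68, SE 0.46). At so few reads the size depends on the offset, and with 1 added before the log the difference was −2.99. Col1a1 passed the filter on low values in E0771-LG cells through its 3 shCtrl samples alone, so it had to differ in order to be tested there. For the same reason it was not tested when any E0771-LG shCtrl sample was left out.

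Col1a2 did not share the difference of Col1a1 in E0771-LG cells. In E0771 cells Col1a2 was at 0.82, −0.40 and −1.59 log2 CPM with shCtrl and 1.52, 2.31 and 2.09 with shPTN, at 30, 15 and 5 reads against 55, 89 and 66. The groups did not overlap, and the shPTN samples were 5.15-fold higher (log2 difference 2.36, SE 0.55). The difference was 1.41 with 1 added before the log, and 1.76 to 2.97 with 1 sample left out. In E0771-LG cells it was at −1.02, 0.13 and −0.26 with shCtrl and 1.2, 1.37 and 0.16 with shPTN, at 8, 21 and 15 reads against 48, 46 and 19. The shPTN samples were again the higher ones, by 2.45-fold (log2 difference 1.29, SE 0.51, and 0.71 with 1 added before the log), with shPTN replicate 3 just above shCtrl replicate 2.

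The exon lengths used join all annotated exons of a gene, 6.56 kb for Col1a1 and 12.43 kb for Col1a2. Outside 4T1 this raises each ratio of Col1a1 to Col1a2 above that of their reads. Per kilobase of exon, the ratio of Col1a1 to Col1a2 was far from that of the chains in the cells. It was 23.6, 56.6 and 115 in E0771 shCtrl samples and 25.4, 17.4 and 21.1 in E0771 shPTN samples. These groups overlap, and the spread of the shCtrl samples comes with the 5 to 30 reads of Col1a2 there. The ratio was 42.0, 16.2 and 25.8 in E0771-LG shCtrl samples and 0.488, 0.143 and 1.02 in E0771-LG shPTN samples. By this ratio, the last were the only samples of the 24 with about as much Col1a2 as Col1a1 or more. By reads, *MMTV-PyMT* 3B10 replicate 1 also had similar amounts, 9566 for Col1a1 and 9158 for Col1a2. In the tumors the ratio was near that of the chains: 1.75, 1.67 and 2.01 with C44 and 2.21, 1.99 and 2.15 with 3B10 in 4T1. No exon length was applied to the 4T1 values, so their ratios rest on the assumption that length was already taken out. In *MMTV-PyMT* tumors it was 2.83, 2.48 and 2.44 with C44 and 1.98, 2.32 and 2.63 with 3B10. Before the lengths were applied, log2 CPM of Col1a1 and Col1a2 were 9.81 and 9.23 in C44 replicate 1. They were 9.20 and 9.13 in 3B10 replicate 1. So in this model the nearness to 2 to 1 rests on the exon lengths. On the log2 scale the tumor ratio was 0.85 ± 0.14 with C44 and 1.08 ± 0.08 with 3B10 in 4T1 (SD; exact two-sided permutation p = 0.2). In *MMTV-PyMT* it was 1.37 ± 0.12 with C44 and 1.2 ± 0.20 with 3B10 (SD; exact two-sided permutation p = 0.4). The smallest p that 3 against 3 samples can give is 0.1.

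**Figure D1:**
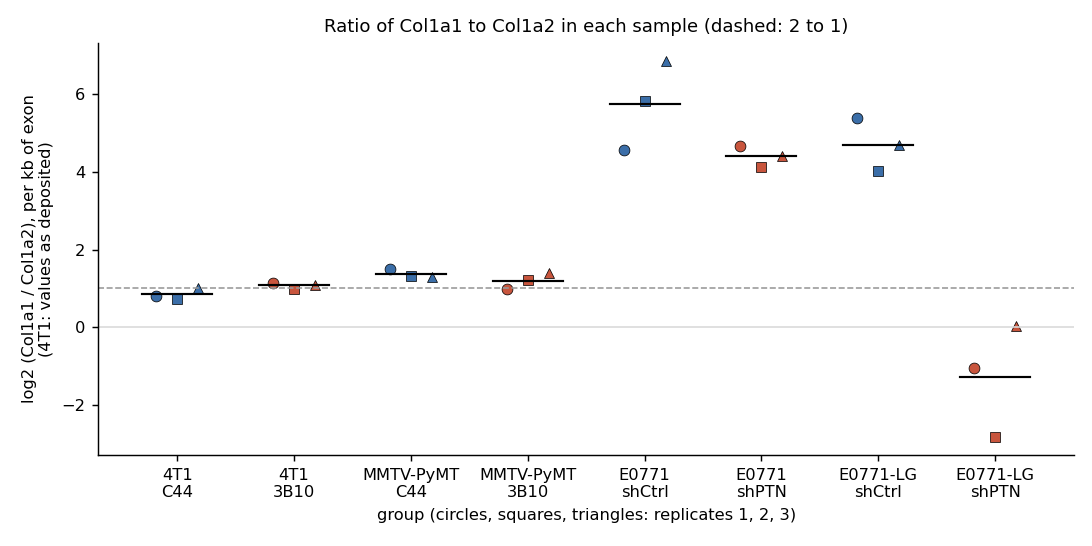
Ratio of Col1a1 to Col1a2 in each of the 24 samples, per kilobase of exon except in 4T1, where deposited values were used with no exon length applied (log2 scale; points are samples, grouped by experiment and treatment, and the dashed line is the 2 to 1 ratio of the chains in type I collagen). The tumors lie near the dashed line, which in *MMTV-PyMT* rests on the exon lengths. The 3 E0771-LG shPTN samples lie at the bottom, between 0.143 and 1.02 before the log.

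Col3a1 encodes the only chain of type III collagen, which forms fibrils together with type I in soft tissues. In E0771 cells it was at 4.27, 4.43 and 4.54 log2 CPM with shCtrl and 7.49, 6.95 and 7.30 with shPTN. All shPTN samples were far above the shCtrl samples, by 7.11-fold (log2 difference 2.83, SE 0.14), at 2225 to 3471 reads against 333 to 441. Of the members tested in E0771 cells, it had the largest log2 difference. Without shCtrl replicate 1 that of Col1a2 was larger (2.97 against 2.76). In E0771-LG cells it was at 1.68, 2.80 and 2.31 with shCtrl and 1.63, 1.74 and 2.06 with shPTN. These groups overlap, at 55 to 136 reads against 60 to 72 (log2 difference −0.45, SE 0.32). The difference was −0.75 without shCtrl replicate 1 and −0.19 without shCtrl replicate 2.

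Col5a1 and Col5a2 encode the chains of the common form of type V collagen, a minor fibril component that starts fibrils and limits their width. Per kilobase, Col5a1 was the most abundant collagen member in both lines. It was at 9.19, 9.28 and 9.34 log2 CPM in E0771 shCtrl samples and 9.69, 9.66 and 9.80 in E0771 shPTN samples. The E0771 groups did not overlap, and the difference was small, 1.36-fold (log2 difference 0.45, SE 0.08). In E0771-LG cells Col5a1 was at 7.71, 8.71 and 8.65 with shCtrl and 8.45, 8.37 and 8.46 with shPTN. Here shCtrl replicate 1 was below and the other shCtrl samples above all shPTN samples (log2 difference 0.07, SE 0.27). Col5a2 had 5, 6 and 5 reads in E0771 shCtrl samples and 7, 22 and 15 reads in E0771 shPTN samples, too few to be tested. In E0771-LG cells Col5a2 was at −0.07, 1.89 and 1.44 log2 CPM with shCtrl and 1.14, 1.40 and 1.97 with shPTN, with overlapping groups (log2 difference 0.42, SE 0.49). Without shCtrl replicate 1 the E0771-LG difference was below 0 for both, at −0.25 for Col5a1 and −0.16 for Col5a2. With 1 sample left out the difference reached 0.25 for Col5a1 and 0.82 for Col5a2, both without shCtrl replicate 2. So the partner chains of type V collagen differed by orders of magnitude in these cells: the E0771 shCtrl mean per kilobase was 6.18 ± 0.08 for Col5a1 and −4.89 ± 0.03 for Col5a2 (log2 CPM per kilobase, SD).

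Sparc binds collagen and procollagen and takes part in fibril assembly. It was higher with shPTN in both lines, by nearly the same amount. In E0771 cells Sparc was at 8.38, 8.29 and 8.34 log2 CPM with shCtrl and 9.80, 9.53 and 9.66 with shPTN. In E0771-LG cells it was at 5.47, 5.68 and 5.54 with shCtrl and 6.74, 6.92 and 6.94 with shPTN. No sample of either line overlapped with the other group, and the difference was 2.51-fold in E0771 (log2 1.33, SE 0.09) and 2.47-fold in E0771-LG (log2 1.30, SE 0.11).

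Of the 3 lysyl oxidases among the members, Loxl2 was the only one with more than a few reads in the cells. Loxl2 was at 3.52, 4.03 and 3.87 log2 CPM in E0771 shCtrl samples and 6.28, 6.34 and 6.33 in E0771 shPTN samples. The shPTN samples were tightly grouped and 5.70-fold higher (log2 difference 2.51, SE 0.14), at 1260 to 1499 reads against 198 to 333. In E0771-LG cells it was at 4.01, 4.72 and 4.23 with shCtrl and 5.24, 5.66 and 5.68 with shPTN. Again all shPTN samples were above all shCtrl samples, by 2.30-fold (log2 difference 1.2, SE 0.19), at 796 to 912 reads against 279 to 517. Lox, which gave the family its name, had 0 reads in all 6 E0771 samples, 9, 2 and 8 reads in E0771-LG shCtrl samples and 2, 1 and 0 reads in E0771-LG shPTN samples. Loxl1, best known for its part in elastic fibers, had 2, 3 and 0 reads in E0771 shCtrl and 1, 3 and 0 reads in E0771 shPTN samples. With E0771-LG it had 0, 2 and 0 reads with shCtrl and 1, 5 and 4 reads with shPTN. Neither Lox nor Loxl1 was tested in the cells.

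**Figure D2:**
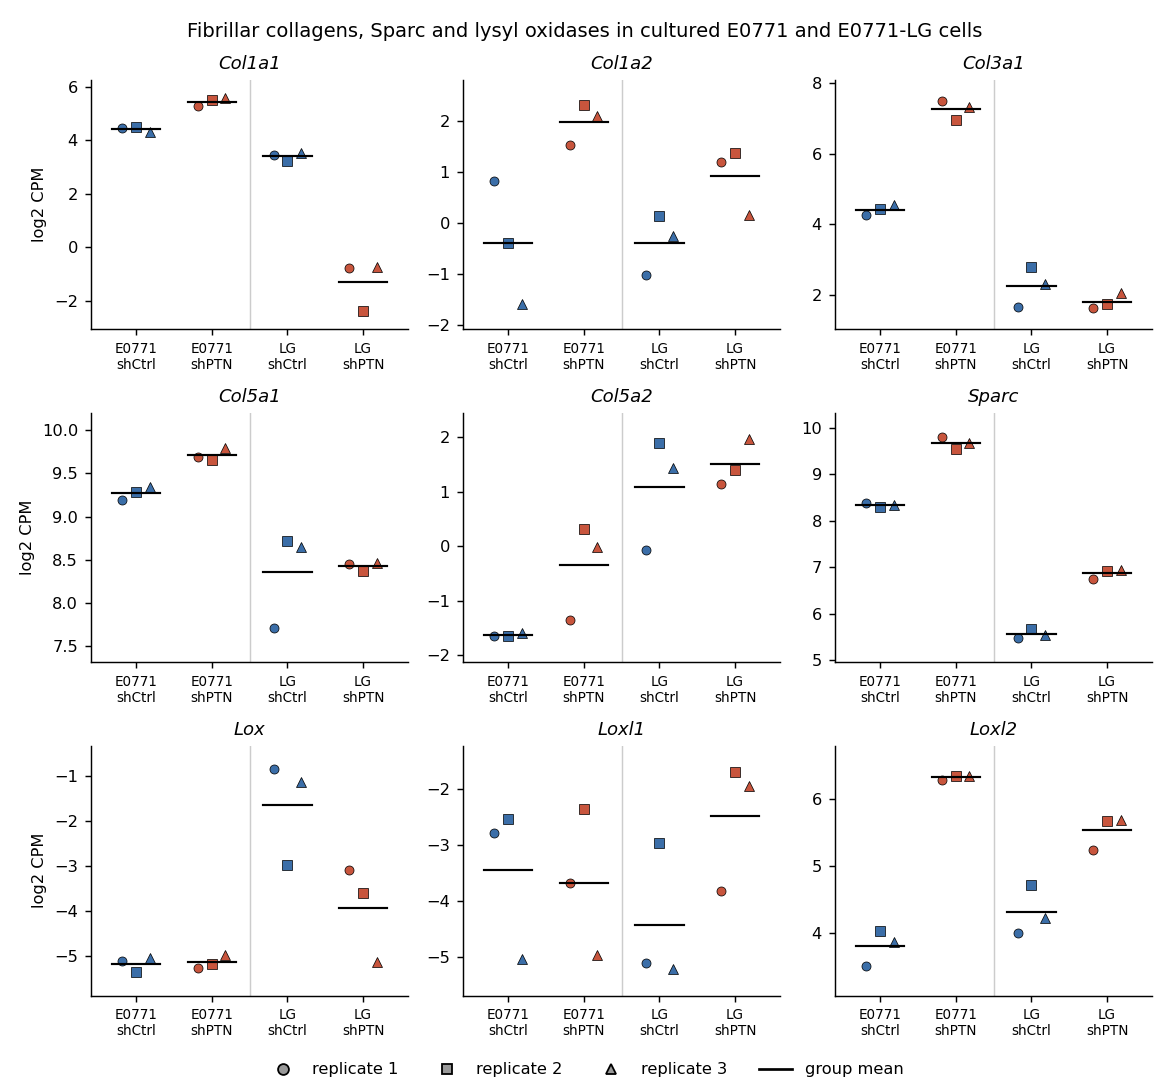
Level of each of the 9 members in the 12 cell samples (log2 CPM, 1 panel per gene with its own axis; symbols are samples, with a shape for each replicate number, and black lines are group means). Col1a1 lies higher with shPTN in E0771 and far lower with shPTN in E0771-LG, whereas Sparc and Loxl2 lie higher with shPTN in both lines.

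Counted by the limma fit over all genes, 6 of the 6 members tested in E0771 cells were called higher with shPTN (Col1a1, Col1a2, Col3a1, Col5a1, Sparc and Loxl2) and 0 lower. Over all 10394 genes tested in that line, 8.89% were called higher and 11.7% lower. In E0771-LG cells 7 members were tested, of which 2 were called higher (Sparc and Loxl2) and 1 lower (Col1a1), where 24.3% of all 10405 genes tested were called higher and 22.1% lower. Since these contrasts chose the members, nothing is read from the counts. Without E0771 shPTN replicate 3, 5 members were called in E0771 (not Col1a2), and in a fit of all 24 samples 4 were (not Col1a1 or Col5a1). In E0771-LG, Col1a2 was also called, as higher, without shCtrl replicate 2, without shPTN replicate 3 and with 1 added before the log. Without shCtrl replicate 1, Col5a1 was also called there, as lower (log2 difference −0.25).

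**Figure D3:**
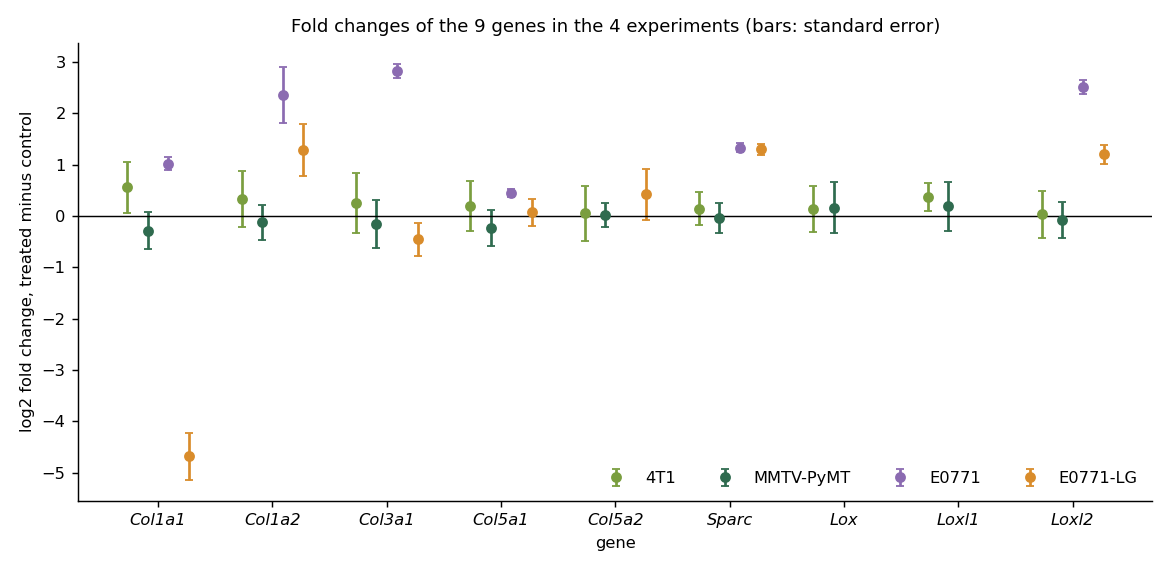
Log2 fold change of each tested member in the 4 experiments (treated minus control; bars are the SE of the limma fit). Points above 0 are higher with shPTN or 3B10. Col5a2 in E0771 and Lox and Loxl1 in both lines had too few reads to be drawn. The lowest point is Col1a1 in E0771-LG at −4.68.

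The lines also differed without depletion. Between shCtrl samples, the E0771-LG mean minus the E0771 mean was −2.77 for Sparc, −2.15 for Col3a1, −1.03 for Col1a1 and −0.91 for Col5a1 on the log2 scale. It was 0.01 for Col1a2, 0.52 for Loxl2 and 2.72 for Col5a2. Per kilobase of exon, the order in E0771 shCtrl cells was Sparc (6.41 ± 0.05 log2 CPM per kilobase, SD), Col5a1 (6.18 ± 0.08), Col1a1 (1.72 ± 0.09), Loxl2 (1.37 ± 0.26), Col3a1 (1.12 ± 0.13), Col1a2 (−4.03 ± 1.21) and Col5a2 (−4.89 ± 0.03). As neighbours in this order, Loxl2 and Col3a1 had overlapping samples, as did Col1a2 and Col5a2, and the others did not. Lox and Loxl1 are left out of the order because of their few reads. In E0771-LG shCtrl cells the order was Col5a1 (5.27 ± 0.56), Sparc (3.64 ± 0.11), Loxl2 (1.89 ± 0.36), Col1a1 (0.68 ± 0.14), Col3a1 (−1.03 ± 0.56), Col5a2 (−2.17 ± 1.02) and Col1a2 (−4.02 ± 0.59). There, Col3a1 and Col5a2 were the only neighbours whose samples overlapped.

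Markers of other cell types were summed off the log scale in each cell sample. Of 10 fibroblast markers in the table (12 listed), Pdgfra was the most abundant in both lines, and the sum was 32.6, 56.9 and 43.5 CPM in E0771 shCtrl against 111, 122 and 123 in E0771 shPTN samples. In E0771, 2 of the 2 fibroblast markers tested rose: Pdgfra (log2 fold change 1.43, adjusted p = 0.000704) and Pdgfrb (log2 fold change 1.61, adjusted p = 0.000469). In E0771-LG cells the fibroblast sum was 78.9, 130 and 92.2 CPM with shCtrl and 53.9, 65.4 and 71.1 with shPTN, with Thy1 at 0 reads. There Pdgfra fell (log2 fold change −0.68, adjusted p = 0.00649), whereas Dcn rose. The sum of 7 pericyte and smooth muscle markers (9 listed), led by Acta2, was 55.6, 49.2 and 52.4 CPM in E0771 shCtrl and 175, 244 and 182 in E0771 shPTN samples. It was 70.2, 44.8 and 55.9 in E0771-LG shCtrl and 17.9, 18.5 and 17.3 in E0771-LG shPTN samples. Acta2 rose in E0771 (log2 fold change 2.38, adjusted p = 0.000226) and fell in E0771-LG (log2 fold change −2.27, adjusted p = 0.000463). Of this list, 3 of 3 tested markers were called higher in E0771, beside 8.89% of all genes. In E0771-LG, 4 of 5 were called lower, beside 22.1% of all genes. These were the directions of Col1a1. Des, the other marker tested in E0771-LG, had a higher mean with shPTN and was not called (log2 fold change 0.68, adjusted p = 0.202). Rgs5 and Cnn1, among those called lower, reached the filter value in only 1 shPTN sample. The fibroblast list was mixed in E0771-LG, with 1 of 3 tested markers called higher and 1 lower.

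Of the 9 epithelial markers, Krt8 was the most abundant in both lines, and their sum was 99.5, 114 and 107 CPM in E0771 shCtrl and 115, 99.2 and 108 in E0771 shPTN samples. Krt19, Krt5, Cldn3 and Cldn4 were at 0 reads in E0771, and Cldn3 and Cldn4 in E0771-LG. In E0771-LG the epithelial sum was 158, 204 and 164 CPM with shCtrl and 424, 565 and 516 with shPTN, and Krt8 (log2 fold change 1.57, adjusted p = 3.88e-05) and Epcam (0.46, adjusted p = 0.0381) rose. Krt18 was higher too, but passed the filter there through its shPTN samples alone, so no test is given for it. Endothelial markers (7 of 8 in the table), led by Eng, summed to 228, 246 and 235 CPM in E0771 shCtrl and 240, 253 and 251 in E0771 shPTN samples, and to 234, 223 and 215 in E0771-LG shCtrl and 165, 174 and 168 in E0771-LG shPTN samples. Leukocyte markers (7 of 8), led by Lyz2, summed to 12, 22.5 and 17.1 CPM in E0771 shCtrl and 43.0, 31.0 and 36.7 in E0771 shPTN samples, with Itgam and Cd3e at 0 reads. In E0771-LG they summed to 3.79, 4.62 and 6.48 with shCtrl and 9.83, 15.4 and 14.8 with shPTN, with Adgre1 at 0 reads. Adipocyte markers (2 of 6), led by Fabp4, summed to 1.28, 1.22 and 2.11 CPM in E0771 shCtrl and 2.49, 0.332 and 2.18 in E0771 shPTN samples, and to 11.1, 18.4 and 12.2 in E0771-LG shCtrl and 1.23, 3.99 and 3.10 in E0771-LG shPTN samples. Skeletal muscle markers (5 of 6) had group means of 2.26 and 2.21 CPM in E0771 and 3.94 and 2.62 in E0771-LG, with Myh4 at 0 reads in both lines. In bulk samples, fewer cells of a type and less RNA per cell cannot be told apart. The part of these cell states in the members' differences was not tested.

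In E0771 cells, the genes most like Col1a1 over the 6 samples, among 10393 genes compared, were Slc36a1 (Pearson's r 0.997), Nadk2 (0.996), Cldn12 (0.996), G2e3 (0.995) and Spi1 (0.995). Over the 6 E0771-LG samples, among 10404 genes, they were Ap4e1 (0.999), Tgoln1 (0.999), Senp1 (0.998), Mier1 (0.998) and Cep192 (0.998). These r are descriptions of groups that are separate in Col1a1, so any gene that separates the groups cleanly has a high r. No gene is on both lists, and no other member is on either.

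The other genes of the collagen pathway were taken from 8 lists with 105 genes, of which 94 are in the table, and were tested over all genes. In E0771 cells 20 of the 75 tested rose and 6 fell with shPTN, beside 8.89% and 11.7% of all genes, and the median log2 fold change was 0.10, beside −0.031 over all genes tested. Bgn, among the 20, passed the filter on low values through its shPTN samples alone. In E0771-LG cells 13 of the 73 tested rose and 17 fell, near the 24.3% and 22.1% of all genes in that line, with a median of 0.10, beside 0.049 over all genes. Of the 71 genes tested in both lines, 10 were called in the same direction and 4 in opposite directions. Over all 10223 genes tested in both, 6.79% were called in the same direction and 3.27% in opposite directions. P4ha3, P3h1, Pcolce, Col6a3, Ddr1 and Mmp14 rose in both, and Colgalt1, Sec24d, Loxl4 and Itga2 fell in both. Thbs1, Mmp2, Timp2 and Tgfb2 rose in E0771 and fell in E0771-LG. The shPTN effect itself differed between the lines for 20 of the 71 by the limma interaction, 4 of them more positive and 16 more negative in E0771-LG, beside 34.7% of all 10223 genes tested so. Over all genes, 1917 were more positive and 1633 more negative, so 54.0% of these calls were positive (46.1% with median-of-ratios scaling). In a fit of all 24 samples, 12 genes of the lists were called in E0771 in place of 26, while the calls over all genes there went from 2140 to 912. Without E0771-LG shPTN replicate 2, 19 were called in that line in place of 30.

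**Figure D4:**
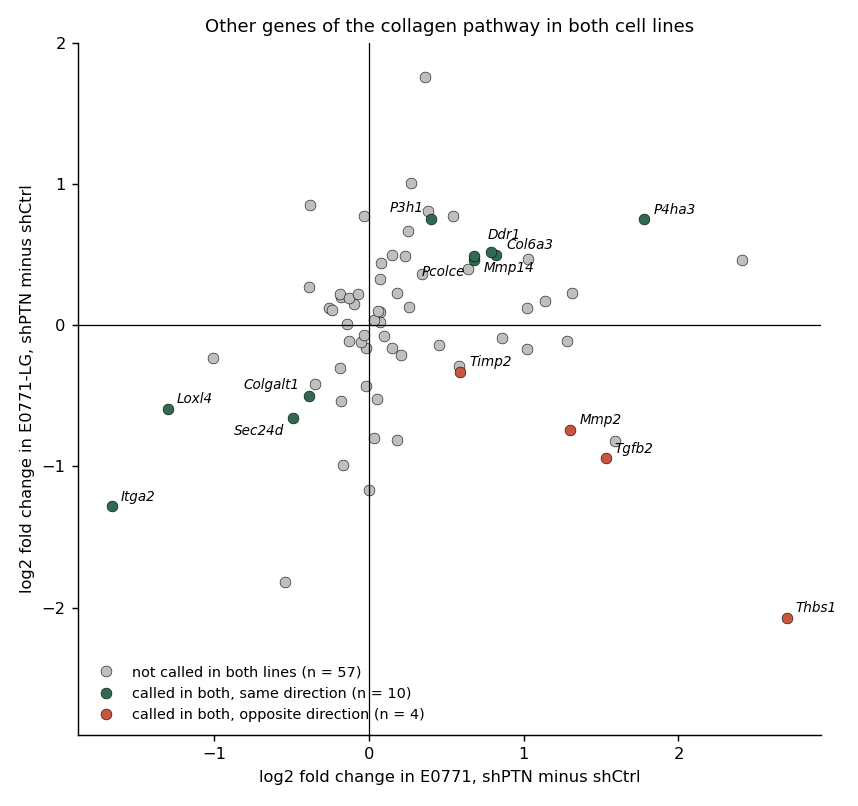
Log2 fold change (shPTN minus shCtrl) of the 71 pathway genes tested in both lines, with E0771 on the horizontal and E0771-LG on the vertical axis (each point is a gene; colors mark genes called in both lines in the same direction, called in opposite directions, or not called in both). Thbs1, Mmp2, Timp2 and Tgfb2 lie in the quadrant of genes higher in E0771 and lower in E0771-LG; Colgalt1 and Timp2 in E0771-LG were labelled after their values were seen.

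The counts of each list stand beside shares over all genes of 8.89% higher and 11.7% lower in E0771. In E0771-LG these shares were 24.3% and 22.1%, so counts do not compare directly between the lines. Genes that fold and modify procollagen were tested in both lines, 19 in each. Of these, 3 rose and 2 fell in E0771 while 4 rose and 2 fell in E0771-LG (median log2 fold change 0.07 and 0.13). P4ha3, a catalytic subunit of prolyl 4-hydroxylase, was at 3.71, 2.51 and 3.11 log2 CPM in E0771 shCtrl and 4.83, 4.94 and 4.92 in E0771 shPTN samples. It rose there with no overlap (log2 fold change 1.78, SE 0.25, adjusted p = 0.00112), and in E0771-LG from 3.42, 3.40 and 3.78 to 4.55, 4.34 and 3.96 (log2 fold change 0.75, SE 0.19, adjusted p = 0.00832). Plod1, a lysyl hydroxylase, rose in E0771 (log2 fold change 0.64, SE 0.09, adjusted p = 0.000708). P3h1, a prolyl 3-hydroxylase, rose in E0771-LG (log2 fold change 0.75, SE 0.15, adjusted p = 0.00278), as did P3h4, which acts with lysyl hydroxylases (log2 fold change 0.77, SE 0.16, adjusted p = 0.00295). Sec24d, part of the coat of vesicles that carry procollagen, fell in E0771 (log2 fold change −0.49, SE 0.08, adjusted p = 0.00265). Of the genes that trim procollagen outside the cell, 1 of 5 rose in each line and none fell. This gene was Pcolce, an enhancer of the C-proteinase, with a log2 fold change of 0.68 in E0771 (SE 0.13, adjusted p = 0.00457) and 0.46 in E0771-LG (SE 0.10, adjusted p = 0.00301), and no overlap in either. In a fit of all 24 samples, calls were lost for Pcolce in E0771 (adjusted p = 0.126) and E0771-LG (0.184), Plod1 (0.0552) and Sec24d (0.114) in E0771, and P4ha3 in E0771-LG (0.112).

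Among the other collagens of fibrils and their surface, 1 of 7 rose in each line, with medians of 0.25 and 0.50. It was Col6a3, a chain of type VI collagen, which rose from 4.54, 5.17 and 5.07 to 5.70, 5.62 and 5.90 log2 CPM in E0771 (log2 fold change 0.82, SE 0.16, adjusted p = 0.00532). In E0771-LG it rose from 5.24, 5.72 and 5.96 to 6.05, 6.15 and 6.24 (log2 fold change 0.50, SE 0.16, adjusted p = 0.0281), a call lost without shPTN replicate 2 (adjusted p = 0.088) or shPTN replicate 3 (0.0974). With 1 sample left out, the E0771-LG log2 fold change of Col6a3 was 0.31 to 0.66. The called genes among the other crosslinking enzymes fell, opposite to Loxl2. Loxl4, a lysyl oxidase of the same subfamily as Loxl2, fell from 4.95, 5.39 and 5.20 to 3.85, 4.01 and 3.77 log2 CPM in E0771 (log2 fold change −1.30, SE 0.14, adjusted p = 0.000221). In E0771-LG it fell from 4.18, 4.48 and 4.51 to 3.76, 3.67 and 3.95 (log2 fold change −0.59, SE 0.16, adjusted p = 0.0106), a call lost without shCtrl replicate 3 (adjusted p = 0.052) or shPTN replicate 2 (0.0506). Of the 3 such enzymes tested, 1 fell in E0771 and 3 fell in E0771-LG, the other two being Loxl3 (log2 fold change −0.99, SE 0.33, adjusted p = 0.03) and the transglutaminase Tgm2 (log2 fold change −0.42, SE 0.15, adjusted p = 0.0438). The Loxl3 groups overlapped, and its call was lost without shCtrl replicate 2 (adjusted p = 0.0791), shCtrl replicate 3 (0.112), shPTN replicate 1 (0.0989) or shPTN replicate 2 (0.115). That of Tgm2 was lost without any single sample (adjusted p between 0.0564 and 0.135) and with a block for the replicate number (adjusted p = 0.0525). In the fit of all 24 samples, calls were lost for Col6a3 (adjusted p = 0.305 in E0771 and 0.388 in E0771-LG), Loxl4 (0.0999 and 0.343) and Tgm2 in E0771-LG (0.113). Without the filter they were lost for Col6a3 (0.0639) and Loxl3 (0.0676) in E0771-LG.

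Of the matrix proteins that bind fibrils, 6 of 11 were called higher, Bgn among them, and 1 fell in E0771 (median 1.02). Over all genes there, 8.89% rose and 11.7% fell. In E0771-LG 2 of 10 rose and 1 fell (median 0.00), beside 24.3% and 22.1% of all genes. Thbs1, a matricellular protein that can activate latent TGF-β, was at 4.35, 3.23 and 3.39 log2 CPM in E0771 shCtrl and 5.87, 6.87 and 6.34 in E0771 shPTN samples. In E0771-LG it was at 4.59, 3.79 and 4.62 with shCtrl and 2.32, 2.36 and 2.10 with shPTN. It thus rose in E0771 (log2 fold change 2.70, SE 0.34, adjusted p = 0.00178) and fell in E0771-LG (log2 fold change −2.07, SE 0.24, adjusted p = 0.000117), without overlap in either line. With a block for the replicate number, the E0771 call of Thbs1 was lost (adjusted p = 0.0668) at the same log2 fold change. Thbs2 (log2 fold change 2.41, SE 0.32, adjusted p = 0.000736) rose in E0771. The proteoglycan Bgn had 4 to 8 reads in the shCtrl samples and 34 reads in each shPTN sample. It passed the filter on low values through its shPTN samples alone, so it had to differ in order to be tested, and no test is given for it. In E0771-LG the proteoglycan Dcn (log2 fold change 1.64, SE 0.62, adjusted p = 0.0486) and the microfibril protein Mfap5 (log2 fold change 0.77, SE 0.26, adjusted p = 0.0302) rose. The Dcn call was lost without shCtrl replicate 3 (adjusted p = 0.148), shPTN replicate 2 (0.172) or shPTN replicate 3 (0.133), and without the filter (0.0919). Without shCtrl replicate 3 the log2 fold change of Dcn was 0.92. The Mfap5 call was lost without shCtrl replicate 2 (adjusted p = 0.086), shPTN replicate 2 (0.0861) or shPTN replicate 3 (0.11), and in the fit of all 24 samples (0.265).

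Collagen receptors had 2 of 6 higher and 1 lower in E0771, and 1 of 5 higher and 2 lower in E0771-LG (medians 0.41 and −0.12). Itga2, the integrin subunit that binds type I collagen, fell in E0771 from 0.91, 2.28 and 1.79 to −0.06, 0.18 and −0.11 log2 CPM (log2 fold change −1.66, SE 0.39, adjusted p = 0.0137). That call was lost without shCtrl replicate 2 (adjusted p = 0.0721) or shCtrl replicate 3 (0.0599). In E0771-LG it fell from 1.85, 1.37 and 1.70 to 0.03, 0.50 and 0.55 (log2 fold change −1.28, SE 0.36, adjusted p = 0.0128). In the fit of all 24 samples the Itga2 call was lost in E0771 (adjusted p = 0.0932) and E0771-LG (0.0943). The receptor kinase Ddr1 rose in E0771 (log2 fold change 0.79, SE 0.11, adjusted p = 0.000951) and in E0771-LG (log2 fold change 0.52, SE 0.12, adjusted p = 0.00592). The integrin subunit Itga1 rose in E0771 (log2 fold change 1.14, SE 0.14, adjusted p = 0.000457). Ddr2, the other collagen receptor kinase, fell in E0771-LG from 8.51, 8.58 and 8.58 to 7.77, 7.73 and 7.75 log2 CPM (log2 fold change −0.80, SE 0.08, adjusted p = 6.86e-05).

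Genes of collagen breakdown and its inhibitors had 3 of 5 higher and none lower in E0771, and 1 of 5 higher and 3 lower in E0771-LG (medians 0.59 and −0.33). Mmp2, a gelatinase, rose in E0771 from 3.66, 4.11 and 3.94 to 5.16, 5.29 and 5.16 log2 CPM (log2 fold change 1.30, SE 0.14, adjusted p = 0.000207). In E0771-LG it fell from 4.61, 5.31 and 5.12 to 4.27, 4.27 and 4.30 (log2 fold change −0.74, SE 0.17, adjusted p = 0.00557). Mmp14, a membrane-bound collagenase, rose in E0771 (log2 fold change 0.68, SE 0.11, adjusted p = 0.00235) and in E0771-LG (log2 fold change 0.49, SE 0.14, adjusted p = 0.0169). The E0771-LG call of Mmp14 was lost without shPTN replicate 1 (adjusted p = 0.0505), shPTN replicate 2 (0.0592) or shPTN replicate 3 (0.0582). With 1 sample left out, the E0771-LG log2 fold change of Mmp14 was 0.31 to 0.61. The inhibitor Timp2 rose in E0771 (log2 fold change 0.59, SE 0.08, adjusted p = 0.00074), and the gelatinase Mmp9 fell in E0771-LG from 4.27, 4.63 and 4.64 to 2.48, 2.85 and 2.75 (log2 fold change −1.82, SE 0.18, adjusted p = 6.12e-05). In the fit of all 24 samples, calls were lost for Timp2 (adjusted p = 0.114) and Mmp14 (0.222) in E0771, and for Mmp2 (0.0678) and Mmp14 (0.235) in E0771-LG.

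Among regulators of collagen genes, 4 of 19 rose and 1 fell in E0771, and 3 of 19 rose and 6 fell in E0771-LG (medians 0.07 and −0.09). Tgfb2, a TGF-β ligand, rose in E0771 from 2.57, 2.03 and 2.09 to 3.61, 3.80 and 3.86 log2 CPM (log2 fold change 1.53, SE 0.20, adjusted p = 0.00065). In E0771-LG it fell from 3.99, 3.15 and 3.90 to 3.18, 2.63 and 2.42 (log2 fold change −0.94, SE 0.27, adjusted p = 0.0164), with overlapping groups. That call was lost without shCtrl replicate 3 (adjusted p = 0.0664), shPTN replicate 2 (0.0682) or shPTN replicate 3 (0.0704). Ccn2, a matricellular gene that TGF-β induces, and Smad7, an inhibitor in the same pathway, rose in E0771 (log2 fold change 1.59, SE 0.27, adjusted p = 0.00237, and 1.31, SE 0.20, adjusted p = 0.00171). Tgfb3 rose in E0771-LG (log2 fold change 1.76, SE 0.37, adjusted p = 0.00309). The mesenchymal factor Prrx1 fell in E0771-LG from 7.20, 7.25 and 7.14 to 5.85, 6.10 and 6.14 (log2 fold change −1.17, SE 0.11, adjusted p = 3.88e-05).

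In both tumor models, the C44 and 3B10 tumors overlapped for every member. By limma, 0 of 9 members passed an adjusted p of 0.05 in either model, 0 of 9 had an unadjusted p under 0.05, and for 0 of 9 did the groups not overlap. Over all genes, 0% passed the adjusted threshold in either model. In a fit of all 24 samples, 6 genes were called higher and 0 lower in 4T1, 0 of them members. In 4T1, 6.27% of 11467 genes had an unadjusted p under 0.05 and 11.3% had groups that did not overlap. In *MMTV-PyMT*, 2.70% of 11361 genes had an unadjusted p under 0.05 and 8.34% had groups that did not overlap. With voom weights on the recovered reads of *MMTV-PyMT*, 0 genes passed the adjusted threshold and 309 had an unadjusted p under 0.05, 0 of them members. A p that misses the threshold does not show that levels were equal.

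In 4T1 tumors, Col1a1 was at 8.96, 9.43 and 8.74 on the log2 scale with C44 and 8.59, 10.80 and 9.42 with 3B10. The highest and the lowest value both belong to 3B10 tumors (log2 fold change 0.56, SE 0.50, adjusted p = 0.943). Col1a2 was at 8.15, 8.70 and 7.73 with C44 and 7.45, 9.81 and 8.31 with 3B10 (log2 fold change 0.33, SE 0.55, adjusted p = 0.971). Col3a1 was at 8.36, 8.75 and 7.99 with C44 and 7.35, 9.95 and 8.56 with 3B10 (log2 fold change 0.25, SE 0.58, adjusted p = 0.978). For both genes 3B10 replicate 1 was lowest and 3B10 replicate 2 highest. Sparc was at 9.98, 10.52 and 10.06 with C44 and 9.77, 11.04 and 10.17 with 3B10 (log2 fold change 0.14, SE 0.32, adjusted p = 0.978). Loxl1 was at 4.66, 5.04 and 4.62 with C44 and 4.68, 5.71 and 5.04 with 3B10 (log2 fold change 0.37, SE 0.27, adjusted p = 0.902), the smallest adjusted p of the members in this model. The other four, Col5a1, Col5a2, Lox and Loxl2, had log2 fold changes of 0.19, 0.05, 0.13 and 0.03. All 9 means were higher with 3B10, with a median log2 fold change of 0.19, beside 0.008 over all genes. This rests on 3B10 replicate 2, which was the highest of the 6 tumors for 8 members and lay 1.02 above the experiment's mean over the members, whereas 3B10 replicate 1 was the lowest for 6 (−0.76). Without 3B10 replicate 2 the log2 fold change was below 0 for 8 of the 9, from −0.04 for Col1a1 to −0.41 for Col3a1. Without C44 replicate 3, which was the lowest tumor for the other three members, it was below 0 for 4 members, from −0.15 for Lox to −0.41 for Col5a2. Without 3B10 replicate 3 it was −0.06 for Loxl2.

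In *MMTV-PyMT* tumors, Col1a1 was at 9.81, 10.28 and 8.78 log2 CPM with C44 and 9.20, 9.35 and 9.46 with 3B10 (log2 fold change −0.29, SE 0.36, adjusted p = 1). Col1a2 was at 9.23, 9.89 and 8.41 with C44 and 9.13, 9.05 and 8.99 with 3B10 (log2 fold change −0.12, SE 0.34, adjusted p = 1). For both, the 3B10 tumors lie close together between the highest and lowest C44 tumors. Col3a1 was at 9.35, 10.10 and 8.41 with C44 and 9.88, 8.78 and 8.75 with 3B10 (log2 fold change −0.15, SE 0.47, adjusted p = 1). Sparc was at 8.90, 9.46 and 8.35 with C44 and 9.14, 8.86 and 8.59 with 3B10 (log2 fold change −0.04, SE 0.29, adjusted p = 1). Lox was at 4.79, 5.89 and 3.72 with C44 and 5.33, 4.81 and 4.74 with 3B10 (log2 fold change 0.16, SE 0.50, adjusted p = 1). C44 replicate 3 was the lowest of the 6 tumors for 9 of the 9 members, and C44 replicate 2 was the highest for 8. The other four had log2 fold changes of −0.24 for Col5a1, 0.02 for Col5a2, 0.19 for Loxl1 and −0.07 for Loxl2. Means were higher with 3B10 for 3 of the 9, with a median of −0.07, beside 0.051 over all genes. Without C44 replicate 2 the log2 fold change turned above 0 for 6 members, up to 0.26 for Col3a1 and Loxl2. Without C44 replicate 3 it turned below 0 for Col5a2 (−0.24), Lox (−0.38) and Loxl1 (−0.20). Without 3B10 replicate 1 it turned for Col5a2 (−0.02), Lox (−0.02), Loxl1 (−0.28) and Loxl2 (0.04). Without 3B10 replicate 2 it turned for Col3a1 (0.03), and without 3B10 replicate 3 for Col3a1 (0.04), Col5a2 (−0.07) and Sparc (0.09).

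**Figure D5:**
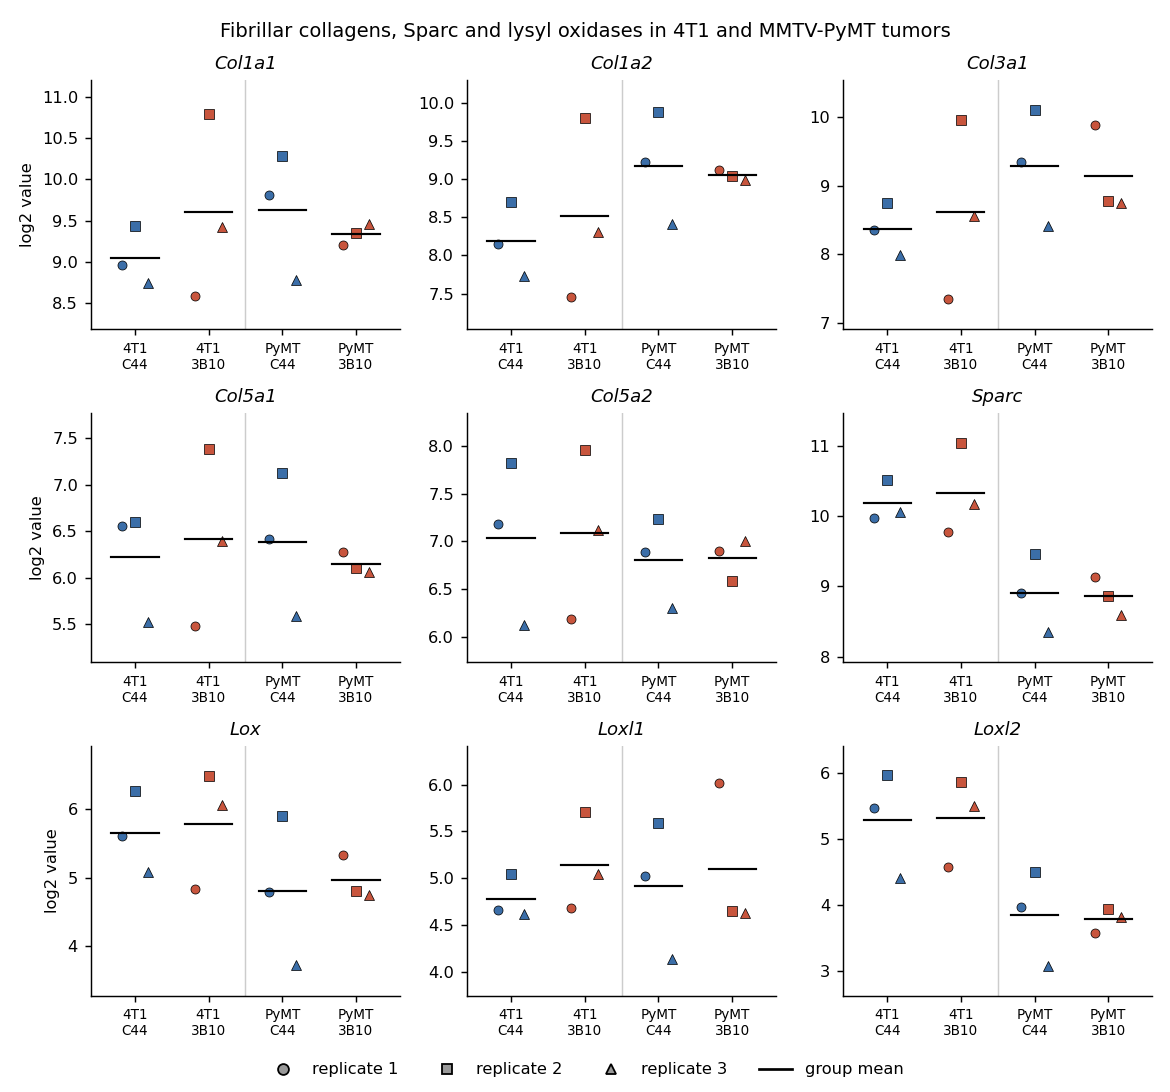
Level of each of the 9 members in the 12 tumors (log2 value; 1 panel per gene with its own axis; the scales of the 2 models differ, so levels compare only within a model; symbols are tumors, with a shape for each replicate number, and black lines are group means). In each panel the C44 and 3B10 tumors overlap, and in the 4T1 panels 3B10 replicate 2 is the highest tumor for 8 of the 9 genes.

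The members varied together from tumor to tumor. With each value centred on the mean of its experiment, Pearson's r of each member with the mean of the other eight over the 12 tumors was 0.903 for Col1a1, 0.969 for Col1a2, 0.945 for Col3a1, 0.963 for Col5a1 and 0.887 for Col5a2. It was 0.938 for Sparc, 0.935 for Lox, 0.763 for Loxl1 and 0.855 for Loxl2. Among the 10881 other genes, those most like the mean of the members were Mrc2, an endocytic collagen receptor (0.972), Fkbp10, a procollagen chaperone (0.968), Bgn (0.964), Fstl1 (0.963) and Col6a2 (0.962). The tumors come from 2 models, and the r are given as a description without a p.

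Per kilobase in *MMTV-PyMT*, and by the values as deposited in 4T1, Sparc and Col1a1 led the order in the C44 tumors of both models, and the lysyl oxidases were at the end. In 4T1 C44 tumors the order was Sparc (10.19 ± 0.29, log2 value as deposited, SD), Col1a1 (9.05 ± 0.35), Col3a1 (8.37 ± 0.38), Col1a2 (8.19 ± 0.48), Col5a2 (7.04 ± 0.86), Col5a1 (6.22 ± 0.61), Lox (5.65 ± 0.59), Loxl2 (5.29 ± 0.79) and Loxl1 (4.77 ± 0.23). This order rests on the same assumption about length. In *MMTV-PyMT* C44 tumors it was Sparc (6.98 ± 0.55 log2 CPM per kilobase, SD), Col1a1 (6.91 ± 0.77), Col3a1 (5.99 ± 0.85), Col1a2 (5.54 ± 0.74), Col5a2 (3.55 ± 0.48), Col5a1 (3.30 ± 0.77), Loxl1 (3.20 ± 0.73), Lox (2.54 ± 1.09) and Loxl2 (1.42 ± 0.72). Most neighbours differ by less than the sum of their SDs. The step from Sparc to Col1a1 in 4T1 and that from Col1a2 to Col5a2 in *MMTV-PyMT* exceed it. In *MMTV-PyMT* 3B10 tumors, Loxl1 (3.38 ± 0.80) stood above Col5a1 (3.06 ± 0.12).

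Marker sums in the tumors were compared by exact two-sided permutation tests, whose smallest p is 0.1. The fibroblast sum was 468, 684 and 550 with C44 and 557, 834 and 609 with 3B10 in 4T1 (permutation p = 0.4; most abundant Thy1). Like most members, it was highest in 3B10 replicate 2, but 5 of the 10 means were higher with 3B10 and 2 markers had an unadjusted p under 0.05, in opposite directions (Pdgfra −0.46 and Dcn 0.66 on the log2 scale). In *MMTV-PyMT* it was 218, 277 and 130 CPM with C44 and 341, 141 and 137 with 3B10 (permutation p = 1; most abundant Dcn), lowest in C44 replicate 3 as for the members. The pericyte and smooth muscle sum was 593, 882 and 356 with C44 and 419, 929 and 548 with 3B10 in 4T1 (permutation p = 0.9, led by Tagln). In *MMTV-PyMT* it was 328, 346 and 283 with C44 and 290, 331 and 306 with 3B10 (permutation p = 0.8, led by Notch3). The endothelial sum was 220, 396 and 274 with C44 and 223, 349 and 185 with 3B10 in 4T1 (permutation p = 0.6, led by Eng), and 174, 221 and 136 against 197, 214 and 143 in *MMTV-PyMT* (permutation p = 0.8, led by Pecam1). The adipocyte sum was 10.7, 39.3 and 46.7 with C44 and 25.8, 31.9 and 31.6 with 3B10 in 4T1 (permutation p = 1), and 15.3, 16.1 and 6.29 against 63.2, 13.3 and 7.14 in *MMTV-PyMT* (permutation p = 0.8).

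Sums of other cell types separated the 4T1 groups. The epithelial sum was 3460, 3860 and 3820 with C44 and 5340, 5130 and 5400 with 3B10 in 4T1 (permutation p = 0.1, led by Krt18), with 9 of 9 means higher and 5 at an unadjusted limma p under 0.05. The leukocyte sum was 8970, 6070 and 7800 with C44 and 2940, 6070 and 3780 with 3B10 (permutation p = 0.1, led by Lyz2), the lowest C44 tumor and the highest 3B10 tumor being nearly equal, with 0 of 7 means higher and 6 at an unadjusted p under 0.05. The skeletal muscle sum was 15.8, 14.4 and 30.3 with C44 and 45.7, 192 and 330 with 3B10 (permutation p = 0.1, led by Tnnt3), with 5 of 5 means higher and 4 at an unadjusted p under 0.05. In *MMTV-PyMT* the epithelial sum was 6270, 5950 and 4410 with C44 and 5040, 5350 and 4450 with 3B10 (permutation p = 0.5, led by Krt8). There the leukocyte sum was 384, 401 and 221 with C44 and 502, 236 and 274 with 3B10 (permutation p = 1), and the skeletal muscle sum 29.3, 11.8 and 7.33 against 9.18, 10.3 and 9.13 (permutation p = 0.6, with Tnnc2 at 0 reads). By limma, 0 markers passed the adjusted threshold in either model. The part of cell mixture in the members' levels was not tested.

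The pathway lists gave no call in the tumors. In 4T1, 0 of 91 tested genes passed limma's adjusted threshold and 7 had an unadjusted p under 0.05, beside 6.27% of all genes (median log2 fold change 0.01), and in *MMTV-PyMT* 0 of 94 passed and 7 had an unadjusted p under 0.05, beside 2.70% (median −0.06). The smallest p in 4T1 belonged to Scx, a tendon transcription factor that acts on Col1a1, at 5.55, 5.36 and 5.79 with C44 and 6.42, 6.47 and 6.23 with 3B10. All 3B10 tumors were above all C44 tumors (log2 fold change 0.81, SE 0.15, adjusted p = 0.496). The inhibitory leukocyte collagen receptor Lair1 was at 5.71, 5.71 and 5.42 with C44 and 4.80, 5.05 and 4.59 with 3B10 (log2 fold change −0.80, SE 0.16, adjusted p = 0.646), beside the lower leukocyte sum. In *MMTV-PyMT* the smallest p belonged to Fbln2, a matrix fibulin, at 7.09, 7.26 and 6.83 log2 CPM with C44 and 6.73, 6.41 and 5.93 with 3B10 (log2 fold change −0.70, SE 0.22, adjusted p = 1). Tgfb1 was at 6.06, 6.02 and 5.79 with C44 and 5.44, 5.67 and 5.29 with 3B10 (log2 fold change −0.49, SE 0.15, adjusted p = 1). None of these passed the threshold over all genes.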

How the data were processed

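RNA was sequenced from 24 mouse samples in 4 experiments, each with 3 control and 3 treated samples. The authors aligned reads to GRCm38 (mm10) with HISAT2, counted them with featureCounts and used edgeR and limma. The values used are log2 values as deposited by the authors, and the design assumed this unit, as found. In 18 samples they are log2 CPM with an offset of 0.5 reads (100% whole reads within 0.02), so reads were recovered, at 15.63 to 21.12 M per sample. In 4T1 samples the depth is unknown, and the values fell with gene length against E0771-LG (slope −0.666, beside 0.138 for *MMTV-PyMT* and 0.166 for E0771).

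Each experiment was fitted with limma 3.58.1 (lmFit, and eBayes with trend and robust; statmod 1.5.0) in R 4.3.3. Genes were tested where the value off the log scale, above the sample's lowest, was at least 1 in at least 3 of 6 samples. P-values are two-sided, adjusted by Benjamini-Hochberg over all genes tested, with a threshold of 0.05. The interaction fit took both lines. The fit was tested on simulated data. Single tumor values were compared by exact permutation. Tables and plots used Python 3.11.15, numpy 2.4.6, pandas 2.3.3 and matplotlib 3.10.9. Positions and exon lengths are from GENCODE M21, and a length joins all annotated exons of a gene.

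Members and lists (8 of pathway genes and 7 of cell type markers) were chosen with earlier results of these data known. Named are the members, Ptn, the 3 called genes of each pathway list with the largest change in each line, the 2 pathway genes with the smallest p in each tumor model, marker genes, and the 5 genes with the highest r in each likeness comparison. Alternatives were no filter, a fit of all 24 samples, a pseudocount of 1, median-of-ratios scaling, voom on recovered reads, a block for the replicate number, and leaving out each sample.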

Additional observations from a re-analysis of the deposited data

Results flagged for a closer look

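In each result given here, the shPTN effect in E0771-LG cells differs from that in E0771 cells, as the difference of log2 fold changes (E0771-LG minus E0771). For Col1a1 it was −5.70, with every shPTN sample higher in E0771 and lower in E0771-LG. This difference was not tested, because Col1a1 was chosen for it. Its size rests on few reads: with 1 added before the log, the E0771-LG part was −2.99 in place of −4.68.

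For genes of the pathway lists the difference was tested by the limma interaction over all genes. Among matrix genes it was −4.78 for Thbs1 (SE 0.46, adjusted p = 3.04e-05) and −1.95 for Thbs2 (SE 0.42, adjusted p = 0.00308). Of the breakdown genes, it was −2.04 for Mmp2 (SE 0.23, adjusted p = 3.49e-05) and −0.92 for Timp2 (SE 0.12, adjusted p = 8.6e-05). The collagen receptor Ddr2 differed by −0.83 (SE 0.12, adjusted p = 0.000276). For enzymes that modify or crosslink collagen it was −1.03 for P4ha3 (SE 0.34, adjusted p = 0.0306), 0.79 for P3h4 (SE 0.20, adjusted p = 0.00799) and 0.71 for Loxl4 (SE 0.21, adjusted p = 0.0168). Among the regulators it was −2.47 for Tgfb2 (SE 0.36, adjusted p = 0.000252), −2.41 for Ccn2 (SE 0.56, adjusted p = 0.00543), −1.17 for Prrx1 (SE 0.17, adjusted p = 0.000265) and −1.08 for Smad7 (SE 0.33, adjusted p = 0.0235). It was positive for Tgfb1, at 0.77 (SE 0.25, adjusted p = 0.0294), and for Tgfb3, at 1.40 (SE 0.36, adjusted p = 0.00813). Over 17 alternatives, including each sample left out in turn, the call was lost in 7 for P4ha3 (adjusted p between 0.0043 and 0.0791 over all), 8 for Tgfb1 (0.00321 to 0.0797) and 6 for Smad7 (0.00329 to 0.0644). All of these lost calls came from leaving out 1 sample, and the other 11 kept theirs in all 17. With a pseudocount of 1 the difference was smaller for Tgfb3 (0.79) and Thbs2 (−1.26).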

How the results depend on the processing

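Of the 9 counts of called genes, 109 of 111 alternative values stayed within 1.5 times the reported count. The exceptions are the pathway genes called in E0771, 26 as reported and 12 in a fit of all 24 samples (2140 and 912 over all genes), and those called in E0771-LG, 30 as reported and 19 to 34 with 1 sample left out. With 1 sample left out the counts were 24 to 28 for pathway genes in E0771, 16 to 26 for the interaction, 5 to 6 for members in E0771, 2 to 4 for members in E0771-LG, and 0 in the tumors. The causes were not tested. Replicate numbers do not pair the samples, and with a block for them the counts were 6 and 3 for members in E0771 and E0771-LG, 27 and 32 for pathway genes, 25 for the interaction and 0 in the tumors.

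Tumor log2 fold changes of members, of which 0 were called, changed sign with 1 sample left out, except Loxl1 in 4T1 (0.09 to 0.60). The other 4T1 ranges were −0.04 to 1.06 for Col1a1, −0.31 to 0.87 for Col1a2, −0.41 to 0.89 for Col3a1, −0.29 to 0.66 for Col5a1, −0.41 to 0.50 for Col5a2, −0.22 to 0.42 for Sparc, −0.21 to 0.61 for Lox and −0.40 to 0.40 for Loxl2. In *MMTV-PyMT* they were −0.71 to 0.04 for Col1a1, −0.50 to 0.24 for Col1a2, −0.59 to 0.26 for Col3a1, −0.63 to 0.14 for Col5a1, −0.24 to 0.23 for Col5a2, −0.32 to 0.24 for Sparc, −0.38 to 0.71 for Lox, −0.28 to 0.52 for Loxl1 and −0.45 to 0.26 for Loxl2. With median-of-ratios scaling, Col5a2 in *MMTV-PyMT* was −0.03 in place of 0.02. Of the other member values, 330 moved by less than the spread or kept their side of the threshold, though Col5a1 and Col5a2 in E0771-LG turned below 0 without shCtrl replicate 1 (−0.25 and −0.16). Beyond the spread, 2 moved with a pseudocount of 1 (Col1a1 in E0771-LG to −2.99 and Col1a2 in E0771 to 1.41). For the 40 other named results with a call, 427 values kept it and 50 lost it, 17 of these in the fit of all 24 samples, 3 without the filter and 2 with the block (Thbs1 in E0771 and Tgm2 in E0771-LG). The 4 named in the tumors had no call in any of 46 values, and no direction turned. Voom could not be run for 4T1 tumors, which have no recovered reads. Depth limits Col1a2 and Col5a2 in the cells and Col1a1 in E0771-LG shPTN cells.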
